A study of Caenorhabditis elegans with 2 samples.

Results

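ELT-2 was mapped by chromatin immunoprecipitation and sequencing (ChIP-seq), and the intronic peaks away from gene starts are described here. A peak was taken when its summit lay inside the body of a protein-coding gene, in no annotated exon, and outside every window from 1000 bp upstream to 500 bp downstream of the 5′ end of a coding transcript. Of the 9181 nuclear peaks that passed the filter on reproducibility between replicates (irreproducible discovery rate, IDR), 1158 met this rule, or 12.6%. Within that list, position alone chose them, and their sequence and signal were not used. The worms were hermaphrodites of strain OP56, with the mutation unc-119(ed3) on chromosome III and the transgene wgIs56, which makes ELT-2 with GFP and FLAG fused at its C-terminus. They were collected whole as L3 larvae, 40 hours after synchronization as starved L1 larvae, and the tagged protein was precipitated with an antibody against GFP. There were 2 biological replicates of this 1 group, so no genotypes, stages or treatments could be compared, and the tests below compare peaks or flanking sequence, not samples. The immunoprecipitate is from all tissues together, so it does not by itself show in which cells a site was occupied. The number of reads is unknown, since the files hold peaks and not counts.

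ELT-2 is a GATA-type zinc finger factor that acts in the intestine from the embryo to the adult and binds sequences with the core TGATAA. Many genes of digestion, defence, metal handling and lipid metabolism in the worm gut depend on it. Worm genes are compact and most known control sequences lie just upstream of the gene, but introns, in particular long ones near the 5′ end, can hold enhancers and alternative promoters. Many worm transcripts also have their 5′ ends replaced by trans-splicing, so an annotated 5′ end can lie downstream of the place where transcription began.

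The sequences of some intronic summits show what most of the set shared. The first 6 below are among the 7 strongest intronic peaks, and the last is the strongest in ifb-2, which encodes an intermediate filament of the gut lining. Each stretch is 151 bases centred on the summit, on the plus strand of ce11, read from the RefSeq sequence of that assembly. Capitals mark TGATAA on either strand, so the site reads TTATCA where it lies on the minus strand.
pkg-2, chrIV:8527703-8527853: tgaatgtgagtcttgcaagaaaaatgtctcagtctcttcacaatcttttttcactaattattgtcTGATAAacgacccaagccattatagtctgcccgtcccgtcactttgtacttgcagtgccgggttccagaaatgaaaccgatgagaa
pkg-2, chrIV:8530762-8530912: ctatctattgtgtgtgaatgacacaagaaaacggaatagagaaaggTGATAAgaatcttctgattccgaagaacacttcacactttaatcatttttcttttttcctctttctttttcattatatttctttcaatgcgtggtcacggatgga
T13B5.9, chrII:1103811-1103961: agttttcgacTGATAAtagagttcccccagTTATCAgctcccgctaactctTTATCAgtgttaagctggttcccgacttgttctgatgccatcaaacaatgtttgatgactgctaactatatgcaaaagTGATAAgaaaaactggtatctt
fkh-9, chrX:3823982-3824132: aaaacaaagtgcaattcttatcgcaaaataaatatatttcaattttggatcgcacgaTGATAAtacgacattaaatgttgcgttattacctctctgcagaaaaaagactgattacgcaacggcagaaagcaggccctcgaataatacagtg
vhp-1, chrII:5323946-5324096: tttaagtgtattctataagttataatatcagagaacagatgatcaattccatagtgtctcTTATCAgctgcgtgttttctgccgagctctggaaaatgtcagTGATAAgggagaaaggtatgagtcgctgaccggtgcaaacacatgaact
slc-25A21, chrX:16192677-16192827: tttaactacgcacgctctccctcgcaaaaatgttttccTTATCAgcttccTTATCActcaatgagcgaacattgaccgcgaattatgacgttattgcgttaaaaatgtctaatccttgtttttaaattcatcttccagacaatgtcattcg
ifb-2, chrII:5751478-5751628: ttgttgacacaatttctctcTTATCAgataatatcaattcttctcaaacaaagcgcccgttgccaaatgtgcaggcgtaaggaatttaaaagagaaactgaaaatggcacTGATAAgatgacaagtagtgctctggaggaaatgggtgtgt
T13B5.9 held 4 sites within 75 bases of its summit, while ifb-2, vhp-1 and slc-25A21 each held 2.

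Other strong peaks had no such site. The next 4 stretches are from peaks with no WGATAR (A or T, GATA, A or G, the wider GATA factor consensus) within 100 bp of the summit, printed in the same way. They are 3 of the 4 strongest peaks of that kind and the strongest peak in daf-12, a gene with many intronic peaks. Capitals here mark the 5 hexamers that were most raised at summits without WGATAR, on either strand. The most raised was GAGAGA, followed by CGTCTC, then by AGAGAC, then by AGACGC and lastly by ACGCAG. The other of the 4 strongest, in nhr-3, is not printed, and its stretch of the same length held none of the 5 hexamers.
epg-9, chrIV:2602098-2602248: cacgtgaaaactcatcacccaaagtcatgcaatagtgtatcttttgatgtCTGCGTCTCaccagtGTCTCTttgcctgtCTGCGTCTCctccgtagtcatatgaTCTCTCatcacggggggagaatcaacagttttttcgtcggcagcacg
daf-14, chrIV:10252463-10252613: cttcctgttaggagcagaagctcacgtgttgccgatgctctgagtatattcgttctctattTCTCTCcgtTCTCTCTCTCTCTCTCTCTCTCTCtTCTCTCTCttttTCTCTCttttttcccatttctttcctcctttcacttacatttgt
pqn-41, chrIII:1925231-1925381: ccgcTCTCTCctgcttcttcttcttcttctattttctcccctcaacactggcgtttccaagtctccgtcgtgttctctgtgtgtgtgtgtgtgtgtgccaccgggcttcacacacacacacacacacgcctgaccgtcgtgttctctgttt
daf-12, chrX:10639629-10639779: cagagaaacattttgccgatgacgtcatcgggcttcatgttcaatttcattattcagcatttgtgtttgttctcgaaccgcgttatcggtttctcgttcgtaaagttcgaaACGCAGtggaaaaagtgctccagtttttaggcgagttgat
The epg-9 stretch held CTGCGTCTC, the reverse complement of GAGACGCAG, at 2 places, and the daf-14 stretch held a long run of TCTCTC repeats.

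The introns that the rule allowed made up 23.8 Mb, or 23.7% of the nuclear genome, and held 48.6 peaks per Mb. This was above the 33.1 per Mb of exons outside promoter windows, and below the 88.6 per Mb of intergenic sequence and the 166 per Mb of promoter windows. Those classes held 722, 2017 and 5284 peaks. The nearest members outside a window edge were in tmem-189 and bcat-1, each 501 bp downstream of a start, with signals of 188 and 123. The nearest summits in introns that were left out lay in Y62E10A.13, exactly 1000 bp upstream of a start, and in C46F2.1, 498 bp downstream, with signals of 465 and 298. In all, 86 members lay within 100 bp outside a window edge and 79 intronic summits within 100 bp inside one.

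TGATAA lay within 100 bp of 725 of the 1158 intronic summits, or 62.6% (exact 95% interval 59.7% to 65.4%). In windows of the same size centred 500 bp away it was found for 204, or 17.6%, and over all positions of the allowed introns the share was 16.4%. The site was at the summit and not in the flank for 599 peaks and in the flank and not at the summit for 78 (two-sided exact sign test, p = 1.96e-100). Peaks of the same gene are not independent, so this p is too small. With WGATAR the shares were 78.2% at summits and 35.1% in flanks. Of the 4 words that WGATAR covers, TGATAA was 3.55 times as frequent at summits as in flanks, AGATAA 2.15 times, TGATAG 2.01 times and AGATAG 1.92 times.

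**Figure D1:**
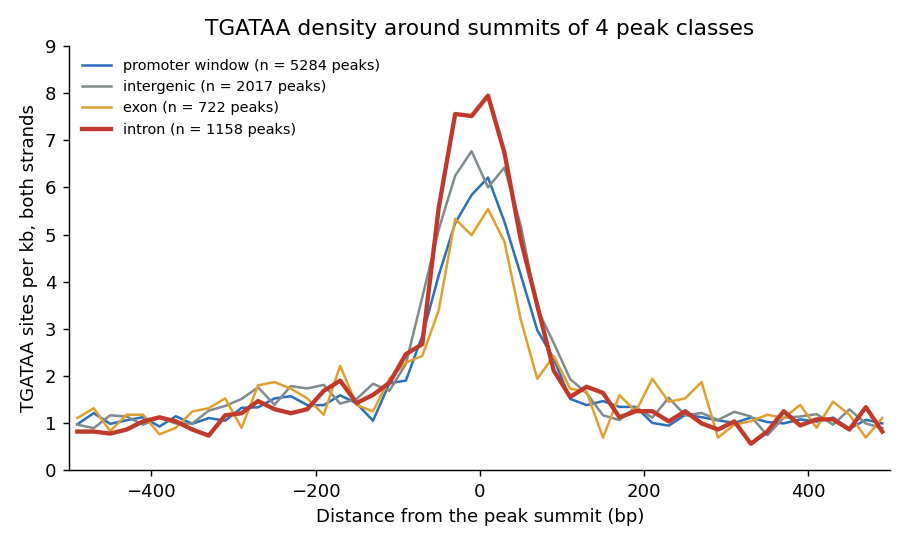
Density of TGATAA (sites per kb, both strands, in steps of 20 bp) against distance from the summit for the 4 classes of peaks, 1 line a class. The intronic line reaches 7.94 sites per kb next to the summit and lies highest there, while beyond 300 bp it stays between 0.561 and 1.34.

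The intronic peaks carried TGATAA more often than the promoter-window peaks, of which 51.2% had it. The difference was 11.4 percentage points (95% Newcombe interval 8.23 to 14.4, two-sided Fisher's exact test, Benjamini-Hochberg adjusted p over 7 comparisons = 1.35e-11). Against intergenic peaks, at 58.3%, the difference was 4.30 points (0.764 to 7.80, Fisher's exact test, adjusted p = 0.0312). By the same exact test, that call was lost when exons of coding genes alone defined the exons (2.51 points, adjusted p = 0.269), among the peaks above the median signal (2.94 points, adjusted p = 0.276) and with WGATAR in place of TGATAA (2.69 points, adjusted p = 0.126). Against exonic peaks, at 46.5%, the difference was 16.1 points (11.5 to 20.6, exact test, adjusted p = 3.51e-11). With exons of coding genes alone, which moves summits in noncoding exons to the other classes, it was 2.94 points and no longer past the threshold (exact test, adjusted p = 0.358).

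By signal, the authors' measure of enrichment per peak, intronic peaks did not differ detectably from promoter-window or intergenic peaks, and they were stronger than exonic peaks. Their median was 212, with quartiles of 123 and 395 and a range from 74.97 to 2426, and the median of all nuclear peaks was 203. By the same Fisher's exact test, a signal above that median was found for 50.9% of intronic peaks, 50.6% of promoter-window peaks (difference 0.33 points, 95% interval -2.85 to 3.50, adjusted p = 0.846) and 52.9% of intergenic peaks (difference -1.95 points, -5.56 to 1.66, adjusted p = 0.352). Exonic peaks had it in 35.7%, which was 15.2 points lower (10.6 to 19.7, exact test, adjusted p = 2.67e-10).

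Within the intronic peaks, the share with TGATAA was higher among the stronger ones. Of the 116 strongest, with signals of 705 or more, 99 had the site, or 85.3% (77.6% to 91.2%). Of the 116 weakest, with signals up to 90.3, 50 had it, or 43.1% (33.9% to 52.6%). The flanks ranged from 12.9% to 24.1% over 10 groups of equal size, with no order by signal. The number of sites followed the same order. The median signal was 150 for the 433 peaks with no site, 195 for the 385 with 1 site, 309 for the 249 with 2, 435 for the 76 with 3 and 498 for the 15 with 4. The quartile ranges of neighbouring groups overlapped, for instance 103.7 to 282 without a site and 124 to 365 with 1 site. Each replicate gave the same order, with medians of 63.5, 86.4, 135, 184 and 196 in replicate 1 and 95.2, 116, 179, 258 and 272 in replicate 2.

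**Figure D2:**
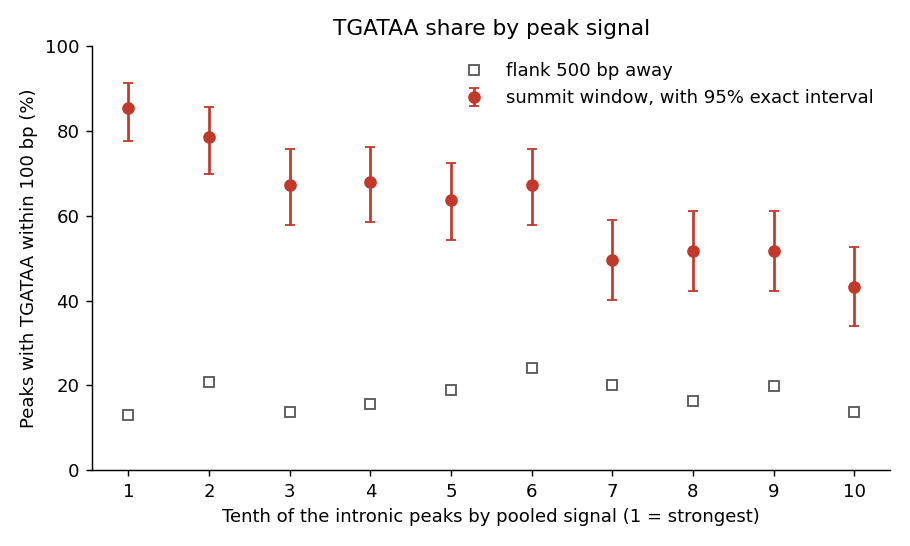
Share of intronic peaks with TGATAA within 100 bp (percent), in 10 groups of equal size from the strongest to the weakest pooled signal. Filled points are summit windows with exact 95% intervals and open squares are flanks 500 bp away; the summit share goes from 85.3% to 43.1% and every interval lies above its flank.

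The sites sat close to the summits. Of the 1171 TGATAA sites counted within 100 bp of the intronic summits, 845 (72.2%) lay within 50 bp, and the median distance was 34 bp. Sites farther out were not counted, so an even spread would also place part of them within 50 bp. The density was 7.94 sites per kb next to the summit, and 2.46 and 2.12 at 90 bp on either side. They showed no preference for the strand of the gene, 567 lying on the strand of the host gene and 604 on the other. Where a peak had more than 1 site, adjacent sites lay a median of 35 bp apart over 446 pairs. Of these pairs, 255 had both sites on the same strand.

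The bases beside TGATAA also differed between summits and the rest of the introns. A G followed the site in 45.2% of the 1086 distinct sites near intronic summits and in 12.1% of the 21643 sites elsewhere in the allowed introns. An A followed in 19.8% near summits and in 44.4% elsewhere. Before the site, C stood in 33.7% near summits against 18.1% elsewhere, and T in 27.1% against 45.05%. The leading hexamers around all intronic summits, within 50 bp, were TGATAA itself (50.2% of summits, 8.55% of flanks) and words that overlap it: CTTATC, the reverse complement of GATAAG (35.7% and 3.02%), CTGATA (26.9% and 5.01%), ATAAGA (24.4% and 5.44%) and GATAAC (19.3% and 2.68%). The sites printed above for T13B5.9, the second pkg-2 peak, vhp-1, slc-25A21 and ifb-2 include the form TGATAAG on either strand. Those of the first pkg-2 peak and of fkh-9 do not. The summit sequences were also somewhat richer in G and C, with a median of 38.3% against 35.3% in flanks.

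No WGATAR was found within 100 bp of 253 intronic summits, or 21.8%. Their median signal was 149, against 212 for all members. The words of WGATAR cannot occur at these summits, by the way they were picked, and the 5 hexamers most raised against flanks were others. GAGAGA was present within 50 bp of 27.3% of these summits and 7.51% of their flanks, CGTCTC of 20.2% and 1.58%, AGAGAC of 22.5% and 4.35%, AGACGC of 17.8% and 1.19%, and ACGCAG of 18.2% and 2.37%. The words that hold a C followed by G, 3 of the 5, are parts of GAGACGCAG or of its reverse complement. GAGACGCAG lay within 50 bp of 11.1% of the summits without WGATAR, 2.43% of those with it and 0.415% of all positions in the allowed introns. At least 1 of the 5 hexamers was present at 43.9% of the summits without WGATAR and 22.98% of those with it. The words were not particular to introns. In the 1773 promoter-window peaks without WGATAR the hexamer that led was GAGAGA (22.1% of summits, 5.30% of flanks), followed by AGAGAG (18.95% and 4.06%), AGAGAC (18.5% and 3.61%), ACGCAG (15.3% and 1.64%) and GACGCA (15.003% and 1.80%). The hexamers were chosen from these same peaks, so their shares are a description.

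The 4 strongest peaks without WGATAR were strong in both replicates, with signals from 407 to 579 in replicate 1 and from 417 to 588 in replicate 2. The strongest, with a pooled signal of 1164, lay in intron 15 of pqn-41, which encodes a protein rich in glutamine and asparagine and is known for its part in the death of the linker cell. The next, at 1020, lay in intron 2 of epg-9, an autophagy gene. The third, at 892, lay in intron 5 of the nuclear hormone receptor gene nhr-3. The fourth, at 816, lay in intron 1 of daf-14, which encodes a Smad protein of the dauer TGF-beta pathway.

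The strongest intronic peak of all lay in intron 5 of pkg-2, a gene for a cGMP-dependent protein kinase at chrIV:8520894-8538187, 6884 bp from the gene's 5′-most start. Its pooled signal was 2426, with 1184 in replicate 1 and 1236 in replicate 2, and it ranked as number 18 of the nuclear peaks. A further peak of the same intron, 9943 bp from the start, had a signal of 2201, with 1037 and 1176 in the replicates. Both replicates placed these peaks near the top of the set, and each replicate gave nearly the same value.

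T13B5.9 on chromosome II held the second strongest intronic peak, at 2345 (1255 in replicate 1 and 1093 in replicate 2), with 4 TGATAA sites. In fkh-9, a forkhead transcription factor gene on the X chromosome, the signal was 2020 (894 and 1130). In vhp-1, a gene for a phosphatase that acts on stress-activated MAP kinases, it was 1986 (967 and 1026), 745 bp from the start of the gene. In acs-13, which encodes a fatty acyl-CoA synthetase, it was 1952 (839 and 1115), and in slc-25A21, a gene for a mitochondrial carrier, 1917 (914 and 1011). The remaining members of the 12 strongest lay in F49E12.12 (1835), T23B5.3 (1829), ZK250.2 (1793), Y43F8B.2 (1767) and crh-2 (1734), a bZIP transcription factor gene related to CREB. Of these 12 peaks, 11 had TGATAA within 100 bp and none had it in the flank. The exception was the peak in crh-2, which had 1 WGATAR and no TGATAA. Replicate 2 gave the higher signal in 10 of the 12, and replicate 1 in T13B5.9 and ZK250.2.

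Summits within 100 bp were present in the lists of both replicates for 1109 of the 1158 intronic peaks, or 95.8%, and for 96.8% of promoter-window peaks (difference -1.01 points, 95% interval -2.41 to 0.12, Fisher's exact test, adjusted p = 0.124). The IDR filter itself compares replicates, so high shares in every class follow from how the list was made. The replicate lists were also long, with 28033 entries in replicate 1 and 30000 in replicate 2, against 9198 peaks that passed IDR. A match can therefore be a weak entry, such as that of the atgl-1 peak in replicate 1, with signal 12.8 and rank 21099. Of the rest, 26 were matched in replicate 1 alone, 22 in replicate 2 alone and 1, in tres-1, in neither. The 49 peaks without a match in both had a median signal of 95.5, against 219 for the matched ones. The strongest of them was a second summit in acs-13, at 628. Over the 1109 matched peaks the signals of the replicates had a Spearman's rho of 0.917. The peaks share their libraries and depth, so no test goes with this value. Replicate 2 was higher in 984 of them, with medians of 129 and 89.8, a median log2 difference of 0.44. The pooled signal was close to the sum of both (median ratio 1.00), so its scale depends on the list. Of the 100 strongest members in each replicate, 84 were the same.

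**Figure D3:**
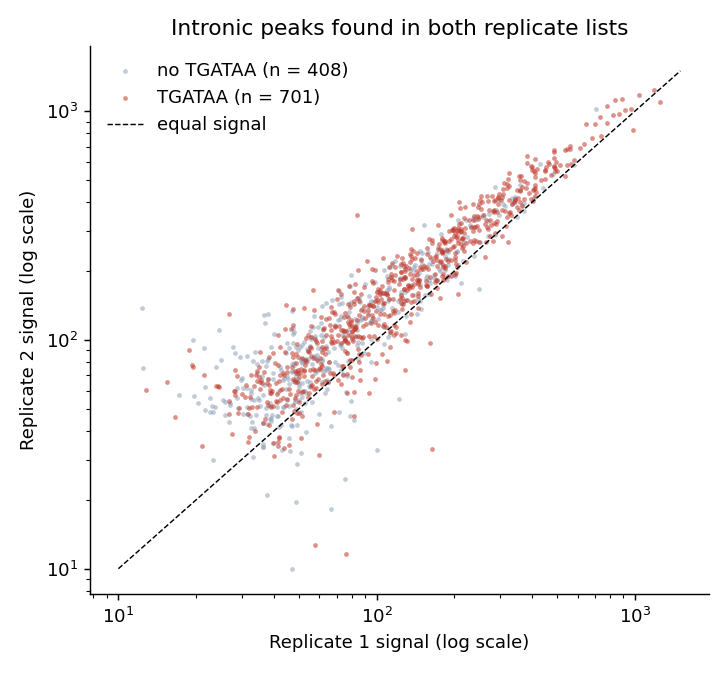
Signal of the 1109 intronic peaks matched in both replicate lists, replicate 1 against replicate 2, on log axes, 1 point a peak, coloured by whether TGATAA lies within 100 bp. Most points (984) lie above the dashed line of equal signal, and the spread is widest among the weak peaks.

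Intronic peaks were densest in first introns and in long introns. The first introns of genes held 321 of them, 27.7%, on 15.6% of the allowed sequence, or 86.6 per Mb. The density was 59.3 per Mb in the second introns, 41.2 in the third introns and 37.04 from the fourth intron on. Introns of 5000 bp or more held 99.6 per Mb and those of 2000 to 5000 bp 71.9 per Mb, while those of 500 to 1000 bp held 29.8. The median member lay in an intron of 1966 bp, 2739 bp from the 5′-most start of its gene. With distance from that start the density went from 56.7 per Mb within 1000 bp to 44.9 beyond 10000 bp, a smaller range than that over intron length. TGATAA was present in 58.6% of peaks in first introns, 71.0% in the second, 65.6% in the third and 60.9% in later ones. It was present in 75.5% of the 110 peaks in introns under 200 bp. For 1006 peaks (86.9%) the nearest coding start was one of the host gene.

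The X chromosome held 290 intronic peaks, 72.6 per Mb, against 43.8 per Mb on the autosomes, a ratio of 1.66. The ratio was 1.22 for promoter-window peaks, 1.19 for intergenic peaks and 2.02 for exonic peaks. In introns under 2000 bp the densities were 59.4 per Mb on X and 29.3 on autosomes, and in longer introns 103.99 and 79.5. Among the autosomes the density went from 34.6 per Mb on chromosome I to 52.9 on chromosome II.

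**Figure D4:**
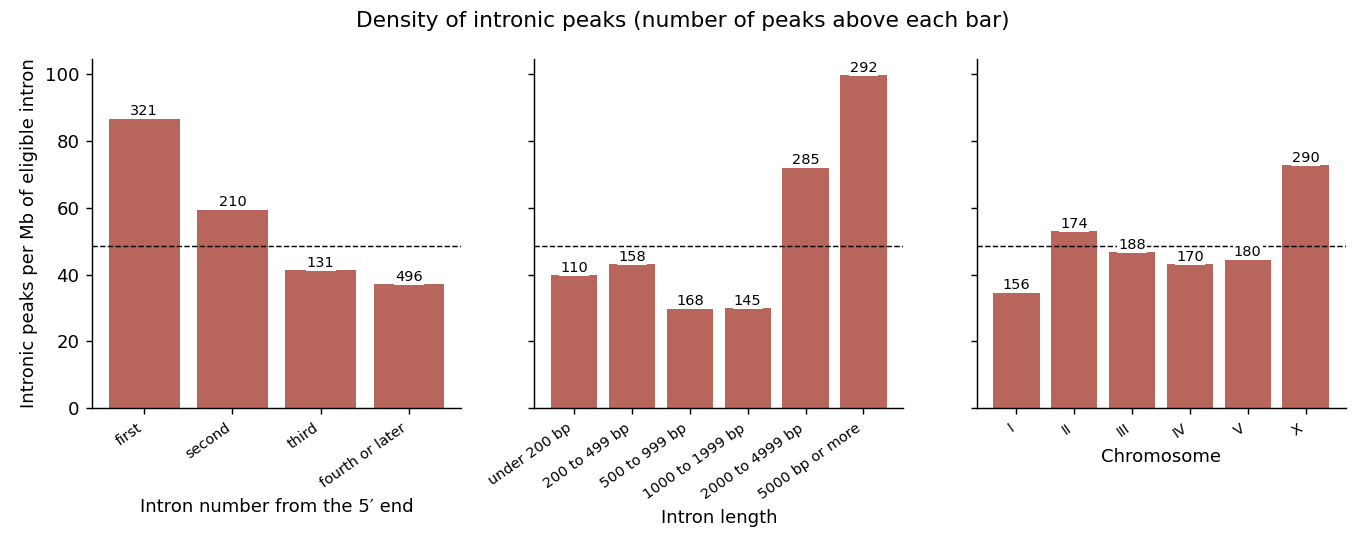
Intronic peaks per Mb of allowed intron by intron number, intron length and chromosome, with the number of peaks above each bar. The dashed line is the density of 48.6 per Mb over all allowed introns; the first and the second introns, introns of 2000 bp or more, chromosome II and the X chromosome lie above it.

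The 1158 peaks lay in 773 host genes, which were 4.93% of the 15689 coding genes with allowed intron sequence. A summit in the promoter window was found for 471 of the 773 hosts, or 60.9% (exact interval 57.4% to 64.4%), against 27.5% of all genes with allowed intron and 25.7% of those without an intronic peak. The share of hosts was 49.2% with windows of 500 bp upstream to 200 bp downstream and 49.7% among the peaks above the median signal. The share over all genes was not taken again for these settings, so these values are not to be set against 27.5%. Genes with more intron have more room for a peak, so the shares were also taken by the amount of allowed intron. With under 500 bp, 69.7% of hosts and 25.8% of other genes had a promoter-window peak, and with 5000 bp or more, 54.9% and 25.8%. The intronic peak was stronger than the strongest promoter-window peak in 206 of the 471 genes with both, 43.7%.

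The other 302 hosts had no promoter-window peak. They held 398 intronic peaks, with a median signal of 184 and TGATAA in 59.8%, while the 760 peaks of the other hosts had a median of 225 and TGATAA in 64.1%. The 12 strongest peaks lay in 11 genes, and 4 of these genes, T13B5.9, slc-25A21, F49E12.12 and ZK250.2, were without a promoter-window peak. In the 7 others the intronic peak was the stronger in 6, an order favoured by choosing genes for strong intronic peaks. In pkg-2 it was 2426 against 437, in fkh-9 2020 against 742, and in T23B5.3 1829 against 76.3. In crh-2 the promoter-window peak was about as strong, at 1746.

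Several peaks in 1 gene were common. Of the hosts, 205 had more than 1 intronic peak, and together these held 590 peaks. pkg-2 and daf-5 had 8 each, and T28B11.1, daf-16, H18N23.2 and daf-12 had 7 each. daf-5 encodes a Sno and Ski family protein of the dauer TGF-beta pathway, daf-16 the FOXO factor downstream of the insulin receptor, and daf-12 the nuclear receptor of the steroid hormones that prevent dauer arrest. All 8 peaks of daf-5 lay in its first intron of 14446 bp, with signals from 81.8 to 845, and 2 of the 8 had TGATAA. In daf-12 the signals ran from 85.3 to 705, and 3 of 7 peaks had the site. The strongest daf-12 peak had signals of 298 in replicate 1 and 408 in replicate 2, and neither TGATAA nor WGATAR within 100 bp. In daf-16 the strongest, at 763 (343 and 422), also had neither, and 3 of its 7 peaks had TGATAA. By contrast, 6 of the 8 peaks in pkg-2 had it. In daf-5, daf-12 and daf-16 the strongest intronic peak exceeded the highest promoter-window peak, at 157, 124 and 210. Choosing genes with many intronic peaks favours this order. Each of the 3 genes also had intronic peaks below those values, down to 81.8 in daf-5, 85.3 in daf-12 and 100 in daf-16. Peaks in hosts with 4 or more carried TGATAA in 56.7% (50.1% to 63.0%) and single peaks in 64.4% (60.3% to 68.4%), intervals that overlap.

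Part of this number comes from pairs of summits about 200 bp apart. No summits lay closer than 199 bp to each other, and 187 members had their nearest neighbour at 190 to 229 bp, against 7 at 230 to 269 bp. Dropping the weaker of 2 members within 250 bp left 1082, and daf-5 then had 6, T28B11.1 4, daf-16 6 and daf-12 6, while pkg-2 and H18N23.2 kept 8 and 7. The 76 dropped peaks had TGATAA in 31.6%, the kept ones in 64.8%.

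Among the gene lists, those for intestinal structure, for endoderm factors and for insulin and TGF-beta signalling had the largest shares of hosts. The shares are over list members with allowed intron, to be read beside 4.93% of all such genes, and the signal given for a gene is that of its strongest intronic peak unless stated. Of the genes for intestinal structure and transport, 10 of 25 were hosts, or 40.0%. They include ifb-2, with a signal of 1166 (486 in replicate 1 and 673 in replicate 2), and eps-8, which encodes an actin-binding protein of microvilli, with 975 (381 and 591). The ifb-2 gene also had a promoter-window peak of 1028. Of the endoderm and intestinal transcription factor genes, 9 of 24 were hosts, or 37.5%, led by fkh-9 and daf-16. Lists can share members. daf-16, with 7 peaks, was counted here and under insulin and TGF-beta signalling. daf-12, also with 7, was counted under nuclear hormone receptors and heterochronic genes. Lists were written with results of these data known, and their counts support nothing beyond these values.

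Of the genes for insulin and TGF-beta signalling, 12 of 33 were hosts, or 36.4%. The strongest peak was in unc-43, which encodes the calcium- and calmodulin-dependent kinase CaMKII, at 1006 (448 and 550), and the next in daf-5. The receptor gene daf-2 and the kinase gene pdk-1 were among the hosts, with signals of 315 and 142 and no promoter-window peak. These genes have long introns: per Mb of allowed intron the list held 185 peaks, against 335 for intestinal structure and 394 for endoderm factors and 48.6 over all genes. Of the heterochronic genes, which time larval development, 4 of 16 were hosts, namely daf-12, lin-14, lin-41 and lin-42. The strongest was in lin-14 at 1088 (510 and 579), and the list held 171 peaks per Mb.

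Of the nuclear hormone receptor genes, 9 of 41 were hosts (21.95%), with nhr-3 and daf-12 in front. Of the lipid metabolism genes, 8 of 32 were hosts. pmt-1, which encodes a methyltransferase of phosphatidylcholine synthesis, had a signal of 1150 (488 and 666), and acs-22, which encodes a fatty acid transport protein homologue, 1055 (465 and 588). In both the intronic peak exceeded the highest promoter-window peak, at 439 and 292, an order favoured by naming genes for strong intronic peaks. Of the genes for innate immunity and stress kinases, 6 of 32 were hosts (18.8%), led by vhp-1 and by atf-7, a bZIP factor in the p38 pathway, at 742 (345 and 400). Of the metal and xenobiotic genes, 4 of 34 were hosts (11.8%). These were the zinc transporter gene ttm-1 at 682 (296 and 394), cyp-36A1 at 329 (129 and 205), cyp-34A9 and zipt-2.3. The promoter windows of the same list had peaks in 73.5% of the genes, against 27.5% of all genes with allowed intron. Across the lists that share ran from 7.41% for hypodermal genes to 100% for ribosomal protein genes.

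The remaining lists had from 0 to 5 hosts each. Of the Wnt, Notch and Ras genes 5 of 38 were hosts (13.2%): cam-1, a receptor tyrosine kinase gene, at 952 (411 and 539), the ETS factor gene lin-1 at 685 (254 and 428), mpk-1, lag-1 and lin-12. None of these 5 had a promoter-window peak. The list held 90.3 peaks per Mb of allowed intron, against 48.6 over all genes. Of the neuronal genes, 5 of 65 were hosts (7.69%), but these genes held 17.3 peaks per Mb, below the 48.6 over all genes. rig-6, which encodes a contactin, had 1063 (460 and 600), and egl-8, a phospholipase C beta gene that is also used in the gut, 492 (191 and 300). One gene each was a host among 45 homeodomain factor genes (nob-1), 38 body wall muscle genes (unc-70), 27 hypodermal genes (elt-3) and 38 germline genes (gld-2). Per Mb these lists held 16.7, 6.96, 23.2 and 63.6 peaks, in that order, so only the germline list was above the 48.6 over all genes. nob-1, a posterior Hox gene, had 2 intronic peaks, neither with TGATAA. The stronger, at 142, was matched in replicate 2 alone, at 85.7, and the weaker, at 109.4, in both (47.5 and 65.99). The unc-70 peak, at 225 (79.9 and 147), had no WGATAR and lay 62 bp from the start of a snoRNA gene. The elt-3 peak was stronger, at 557 (283 and 272), with 4 TGATAA sites; elt-3 encodes a GATA factor of the hypodermis. gld-2, which encodes a poly(A) polymerase, had 2 intronic peaks, at 277 (132 and 150) with TGATAA and at 142 (64.7 and 75.3) without it. None of 13 ribosomal protein genes was a host, on 1.11 kb of allowed intron in all.

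**Figure D5:**
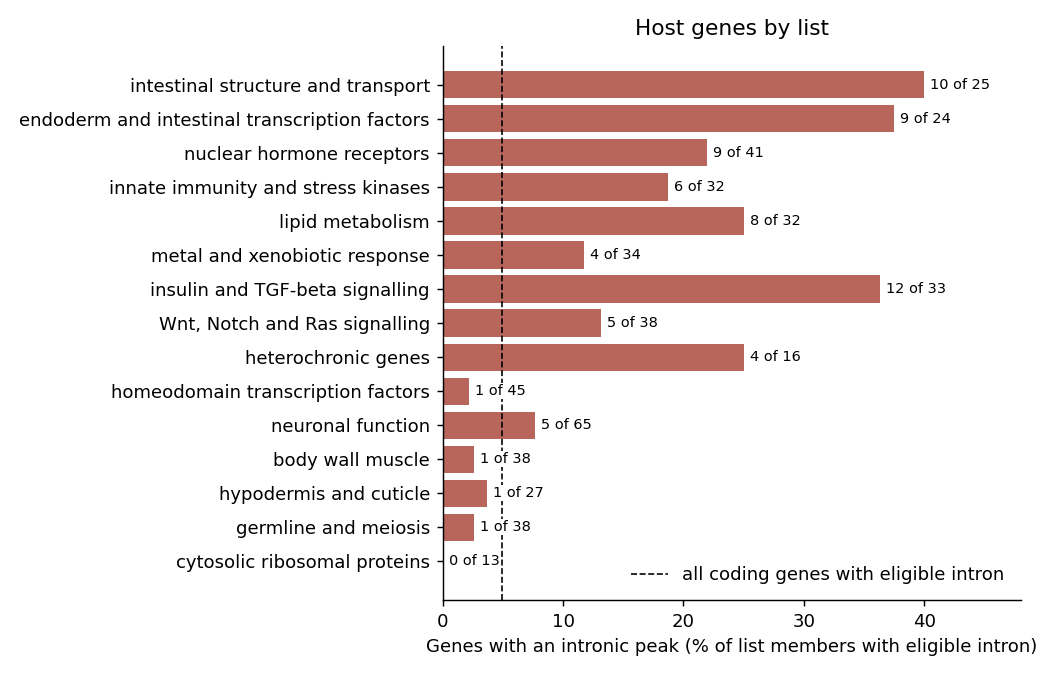
Share of list members with allowed intron that hold an intronic peak (percent), with the number of hosts beside each bar; the dashed line is the 4.93% of all coding genes with allowed intron. The bars run from 40.0% for intestinal structure and transport to 0 for ribosomal proteins.

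Defining markers of the tissues were counted in the same way. Of 10 intestinal markers 8 had a promoter-window peak, and of the 8 with allowed intron 3 had an intronic peak (cpr-6, pept-1 and ifb-2). Of 5 body wall muscle markers and 4 germline markers none had a peak of either kind. Of 5 neuronal markers snb-1 had a promoter-window peak. elt-3, of 5 hypodermal markers, and pha-4, of 3 pharyngeal markers, had both kinds. Over all coding genes with allowed intron, 27.5% had a promoter-window peak and 4.93% an intronic peak. Beside these shares, the absence of peaks in so few muscle and germline markers says little.

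Some intronic peaks lay beside small noncoding genes. The start of a noncoding gene was within 200 bp of 140 members. The same share of all allowed intron sequence was not taken. The counts therefore do not show whether intronic peaks lie beside such genes more often than intron sequence does. For 49 the gene was a tRNA gene, at a median distance of 21 bp. These 49 peaks were weak, with a median signal of 126 and a range from 76.5 to 417. TGATAA was present in 8 of the 49, or 16.3% (7.32% to 29.7%), the same number as in their flanks. The strongest lay in sulp-3 on the X chromosome, at 417 (171 in replicate 1 and 241 in replicate 2), 18 bp from a tRNA start. For 21 it was a snoRNA gene, and the median signal of these 21 peaks was 225. TGATAA was present at 3 of their summits and in 4 of their flanks. For 44 it was a gene of the broad class ncRNA, and 18 of these had TGATAA, or 40.9% (26.3% to 56.8%), against 13.6% of their flanks. Their median signal was 188 and their highest 1203. For 13 it was a piRNA gene, and 11 of these had the site. The 1018 members with no noncoding start within 200 bp had TGATAA in 66.8% (63.8% to 69.7%) and a median signal of 220. What the noncoding genes contribute to the peaks beside them was not tested.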

How the data were processed

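Both biological replicates of the anti-GFP ChIP-seq entered through peak lists. Per the labels and the deposited text files, the authors deposited ce11 lists of peaks per replicate, of the replicates pooled, and of those passing IDR. The control library of the peak calling is not analysed here. For caller, aligner and IDR threshold, versions and settings were not given in the sources used here, and ce10 lists were not used. The deposited signal of each peak, the authors' enrichment value, served to rank and describe peaks within a list. No use was made of the deposited −log10 q. The deposited summit offset, added to the peak start, gave the summit. Depth is unknown, and intervals cover counting error only.

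Summits on 6 nuclear chromosomes were classed with Ensembl release 115 (WBcel235, the same assembly as ce11) as promoter window, exon, intron or intergenic, in that order, and 17 mitochondrial peaks were left out. The host was the shortest coding gene around the summit, and introns were numbered between merged exons. Sites were sought on both strands within 100 bp. The summit was compared with its flank by a two-sided exact sign test, and classes by two-sided Fisher's exact tests with Benjamini-Hochberg adjustment over 7 comparisons and a threshold of 0.05. Shares have exact Clopper-Pearson intervals and differences Newcombe intervals. The p-values come from peaks, not samples.

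The members, the 15 gene lists and the tests were chosen with earlier results of these data known. Named genes are the hosts of the 12 strongest intronic peaks, hosts with the most peaks, per list the 2 hosts whose intronic peak is strongest, and the 4 strongest peaks without WGATAR. Others were named after their values were seen. The hexamers, noncoding neighbours and 250 bp merging were also chosen after seeing the data. Alternatives changed the windows, exons, site distance, word, flank, match and signal minimum, or used 1 replicate's list. Computation used Python 3.11.15 (scipy 1.17.1, pandas 2.3.3, numpy 2.4.6), with matplotlib 3.10.9 for plots, and the steps were tested on simulated data.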

Additional observations from a re-analysis of the deposited data

How the results depend on the processing

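Of 94 recomputed values, 80 kept their direction and their side of the threshold, or stayed near the reported value. All 14 alternatives kept the excess of TGATAA at intronic summits over flanks (40.3 to 55.1 points), all 11 that over promoter-window peaks (7.85 to 13.6 points), and all 7 the stronger signals against exonic peaks (14.6 to 19.4 points). The number of intronic peaks was 1490 with windows of 500 to 200 bp, 857 with windows of 2000 to 500 bp and 590 among the peaks above the median signal. The excess of TGATAA over intergenic peaks was no longer past the threshold with exons of coding genes only (2.51 points), the peaks above the median signal (2.94 points) and WGATAR (2.69 points), and that over exonic peaks with exons of coding genes only (2.94 points). The small difference in signal from promoter-window peaks changed sign with the shorter windows (-0.30 points) and with exons of coding genes only (-0.98 points), and ran from -0.83 to 1.63 points with 1 replicate left out. That from intergenic peaks was 0.095 points without peaks beside noncoding gene starts, an alternative added after seeing the data. The difference in matching changed sign with any overlap as a match (0.028 points), and ran from -0.76 to 0.49 points with the peaks of 1 replicate alone. Those peaks were still matched to both lists, and each matches its own list by construction. That range therefore cannot show whether matching depends on 1 replicate. None of these small differences in signal or matching was past the threshold in any alternative. The share of hosts with a promoter-window peak was 49.2% with the shorter windows, 67.7% with the longer ones and 49.7% among the peaks above the median signal. By construction, shorter windows hold fewer summits and a signal minimum fewer peaks; the other causes were not tested. No paired analysis was possible because both samples belong to 1 group. Without counts, the depth behind weak peaks is unknown.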
